A study of Sus scrofa with 37 samples.

Results

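The SLC25 genes encode the mitochondrial carriers, and 30 of the 9418 gene symbols in the deposited count table of this study carry the root SLC25A followed by a number. All 30 passed the filter on low counts, which left 9411 genes for testing, and the lowest count of any of them in any library was 6. RNA sequencing was done on contused skeletal muscle, that is muscle after blunt injury, of the Bama minipig, a small pig breed. The injured muscle was taken every 4 h from 4 to 24 h and again at 48 h, with 4 libraries at each of these 7 times, and 9 further libraries are labelled as control. The design text gives 8 minipigs in all and speaks of biological replicates, but the labels do not say which libraries came from the same animal, so every p-value measures only the spread between these libraries. Mechanical damage is the stated treatment of all 37 libraries, the controls included, and the sources used here do not give the handling of the control muscle, the muscle taken or the age and sex of the animals. The questions were how the level of each carrier transcript at each time compared with the controls, and how 48 h compared with 8 h.

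Mitochondrial carriers are membrane proteins built of repeated pairs of membrane-spanning helices. Nearly all of them sit in the inner mitochondrial membrane, which is otherwise closed to charged metabolites. They exchange ADP for ATP, bring in phosphate, and move amino acids, carboxylates, acylcarnitines, iron, nucleotides and cofactors between the cytosol and the matrix. In muscle, the ADP/ATP and phosphate carriers supply oxidative phosphorylation, and the aspartate/glutamate carriers belong to the malate-aspartate shuttle, which passes the reducing equivalents of glycolysis to the respiratory chain.

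Levels are CPM, counts per M of the table's counts after TMM scaling, with ± the standard deviation between libraries. They are not divided by transcript length, so they compare a gene between libraries and not 1 gene with another. Log2 fold changes are differences from the 9 controls with ± the standard error, and "rose", "fell" and "called" are kept for an adjusted p below 0.05 by edgeR's quasi-likelihood test over all 9411 genes. The 7 times share the same controls and are not independent of each other. Column totals were 9.86 to 22.88 M counts. The skeletal muscle markers fixed for this work (7 of 12 measured) summed to 62789 to 115962 CPM in the controls and 19853 to 104000.0 CPM after injury. Earlier results had divided the libraries into 5 sets that no label names. The division used the column total (above 20 M or not) and the CPM of C1QBP, NDUFAF8 and ND6. A term for these sets thus rests on values of the same libraries and not on a recorded batch. The 4 h libraries have no control in their sets. Sets that also hold controls took in all 4 libraries at 8, 16 and 48 h, 2 of 4 at 12 and 20 h, but only 1 of 4 at 24 h.

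Under TMM scaling, to which the counts here refer, most changes of the carriers were falls between 8 and 24 h. Under column totals, described below, rises outnumbered falls at 16 h (11 and 9), 24 h (11 and 9) and 48 h (10 and 3). At 8 h, 18 of the 30 carriers were called, beside 54.0% of all genes tested, of which 4 were higher and 14 lower, where 25.8% of all genes were higher and 28.2% lower. At 16 h 18 were called (6 higher, 12 lower), against 53.1% of all genes tested (25.3% higher, 27.8% lower). The 20 h libraries gave 21 carriers (6 higher, 15 lower) and 51.5% of all genes tested (25.4% and 26.2%), and those of 24 h gave 22 carriers (9 higher, 13 lower) and 53.9% of all genes tested (26.8% and 27.1%). Fewer passed at the remaining times. At 4 h 1 was higher and 4 lower, beside 18.3% of all genes tested (9.22% and 9.06%). At 12 h 4 were higher and 7 lower, beside 31.0% of all genes tested (16.3% and 14.7%), and at 48 h 4 were higher and 5 lower, beside 20.3% of all genes tested (12.8% and 7.45%). The share of carriers called in either direction was near that of all genes at 4, 8, 12 and 16 h, and was 70% at 20 h, 73.3% at 24 h and 30% at 48 h, with no test of the difference made. The 48 h count of 9 was 1 without 48 h replicate 1, 3 without replicate 3 and 17 without replicate 4, and it was 4 with the library sets as a term (11.8% of all genes) and 2 when only the groups compared were fitted (9.98%). Falls made up 50% of the carriers at 20 h and 43.3% at 24 h.

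Over both directions, the share of carriers whose libraries all lay outside the controls was near or below that of all genes at most times. It was larger at 20 and 24 h. The directions differed. The share lying below all controls was larger than that of all genes from 8 to 24 h. The share lying above them was smaller from 4 to 20 h and larger at 24 h, and at 48 h by 1 carrier. No test of these differences was made. All 4 libraries lay above all 9 controls for 2 carriers at 8 h (13.8% of all genes) and below them for 5 (12.2%). At 12 h this held for 0 above and 3 below (6.04% and 4.46% of all genes), and at 16 h for 3 and 6 (17.2% and 15.9%). At 20 h 2 were above and 9 below (14.2% and 11.8%), and at 24 h 6 and 8 (16.4% and 14.7%). No carrier was clear of the controls at 4 h (2.28% above and 2.44% below over all genes), and 1, SLC25A14, lay above them at 48 h (1.41% above and 0.818% below over all genes). Over the 30 carriers the median log2 fold change under TMM ran -0.21, -0.49, -0.20, -0.44, -0.42, -0.51 and -0.26 over the 7 times in order, whereas the median of all genes lay between -0.07 and -0.02.

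Most carriers were called in 1 direction only, but the share of all genes with such a course was not counted. Of the 30, 15 were called only lower, 10 only higher and 1, SLC25A38, lower at 8 h and higher at 20 and 24 h (the 8 and 20 h calls not with the library sets as a term). SLC25A15, SLC25A33, SLC25A37 and SLC25A43 were called against the controls at no time. A joint test of the 7 times called 27 carriers, beside 83.2% of all genes tested. It left out SLC25A15 (edgeR adjusted p = 0.0591), SLC25A33 (0.0692) and SLC25A43 (0.428). Scaling by column totals instead of TMM took the median over all genes to -0.18 at 4 h, -0.13 at 8 h and then, from 16 h on, to 0.31, 0.29, 0.46 and 0.34. The median over the carriers became -0.36, -0.55, -0.23, -0.09, -0.10, -0.03 and 0.04 over the 7 times in order. It was near 0 from 16 h on but below the median of all genes at each time. The split of the carriers then became 0 higher and 7 lower at 4 h, 1 and 8 at 12 h, 11 and 9 at 16 h, 10 and 13 at 20 h, 11 and 9 at 24 h, and 10 and 3 at 48 h. None of the 104 calls of a carrier at a time changed sign under that scaling, and 88 kept their call (29 of 34 higher, 59 of 70 lower).

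**Figure D1:**
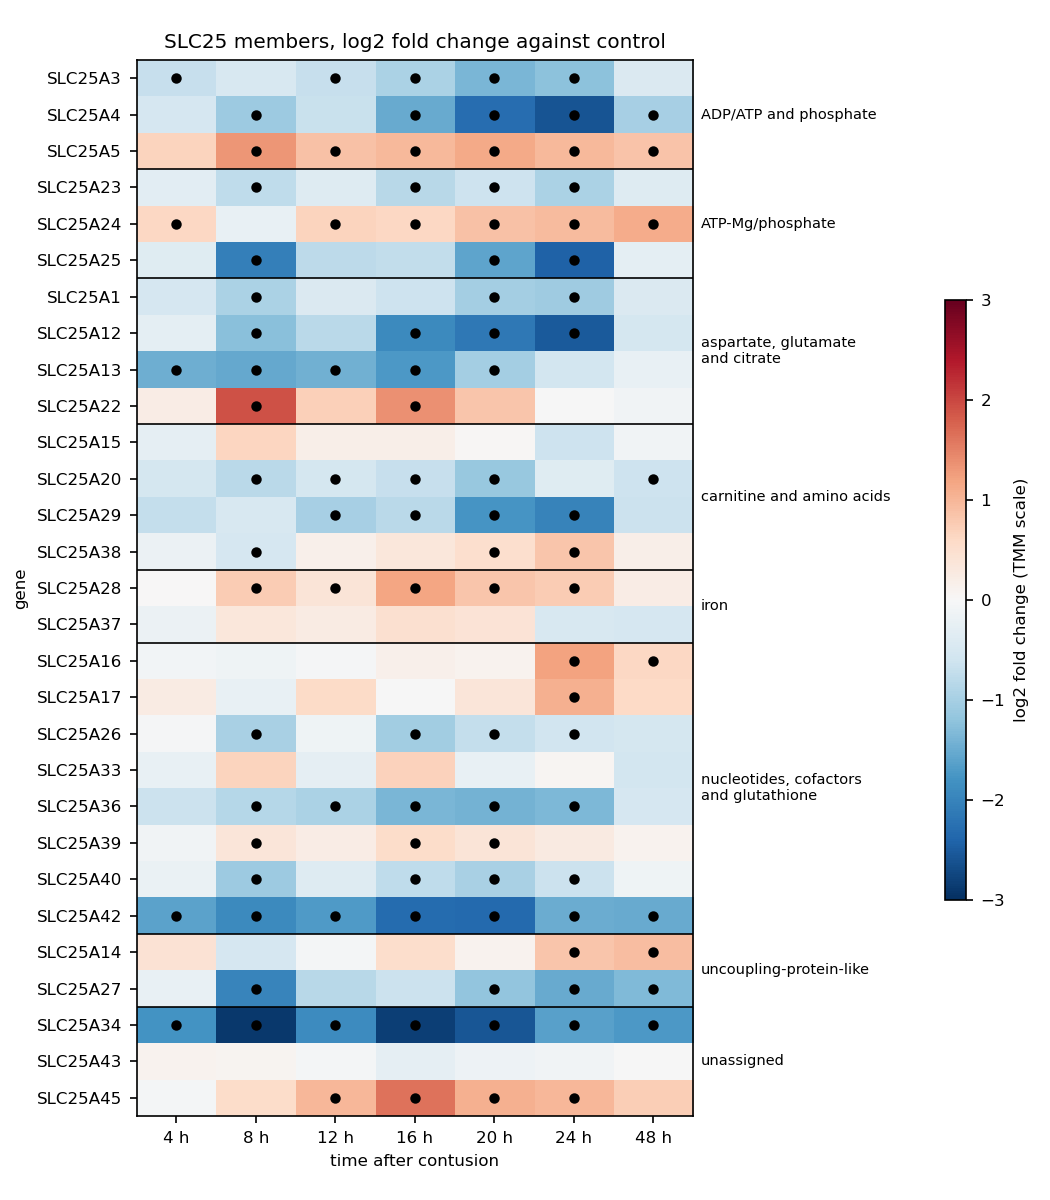
Log2 fold change against the 9 controls (colour) for 29 of the 30 SLC25 carriers (vertical, grouped by transported substrate) at 7 times after contusion (horizontal, h), with a mark where edgeR's adjusted p was below 0.05. Falls of SLC25A4, SLC25A12, SLC25A42 and SLC25A34 reach below -2, while SLC25A5, SLC25A24 and SLC25A28 are higher at 5 or 6 times.

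The ADP/ATP carriers measured, SLC25A4 and SLC25A5, moved in opposite directions. SLC25A6 and SLC25A31, of the same role list, are not in the count table. SLC25A4 (chromosome 15, 46193498 to 46197989, Sscrofa11.1), the ADP/ATP carrier of heart and skeletal muscle, had a lowest value of 2689.8, a median of 4624 and a highest of 5328 CPM over the 9 controls. SLC25A4 took 51.1 to 63.7% of the counts of the 30 carriers in the controls. Its level was 3230.5, 2452, 2820.3 and 3371 CPM in the 4 libraries at 4 h, 1847, 1678, 1695 and 2718 CPM at 8 h and 2006, 2168, 3101 and 3372 CPM at 12 h. At 16 h it was 1309, 1382, 1525 and 1700.1 CPM, at 20 h 1454, 804, 587 and 621 CPM and at 24 h 885, 820.5, 428 and 686 CPM. All 12 libraries from 16 to 24 h lay below every control, whereas the earlier times overlapped with them. At 24 h its mean was 705 ± 202 CPM (SD, n = 4) against 4211 ± 973 CPM (SD, n = 9), a log2 fold change of -2.58 ± 0.38 (edgeR adjusted p = 2.62e-06). The falls at 8 h (-1.09 ± 0.35), 16 h (-1.51 ± 0.36) and 20 h (-2.28 ± 0.38) also passed, and those at 4 and 12 h did not (-0.50 and -0.66, adjusted p = 0.309 and 0.139). Its share of the counts of the 30 carriers was 30.3 to 37.8% at 24 h.

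At 48 h the libraries parted. SLC25A4 was 546, 3088, 780.0 and 4083 CPM, so that replicates 1 and 3 lay below all controls and replicates 2 and 4 within their range. The log2 fold change of -0.99 ± 0.35 passed narrowly (edgeR adjusted p = 0.0422), and the call was lost without replicate 1 (-0.66, adjusted p = 0.261), without replicate 3 (-0.70, 0.233), without any of controls 1, 2, 3, 4 and 8 (adjusted p = 0.0527 to 0.0634) and with the library sets as a term (-1.09, adjusted p = 0.0974). Replicates 1 and 3 were also the lower at 48 h for SLC25A3, SLC25A12, SLC25A23, SLC25A26 and SLC25A29. In the same 4 libraries the macrophage markers (14 of 14 measured) summed to 1063, 179.6, 879 and 198 CPM, against 73.3 to 224 CPM in the controls, and the slow fibre genes (8 of 8) to 5416, 18879.8, 4989 and 46042 CPM. The part of these marker levels in the carrier values was not tested. In bulk tissue, fewer cells of a type and less RNA per cell cannot be told apart.

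SLC25A3 (chromosome 5, 85284405 to 85292336), the carrier that brings phosphate into the matrix for ATP synthesis, had a lowest value of 1124, a median of 1636 and a highest of 1904 CPM over the 9 controls. At 20 h it was 591, 630.0, 696 and 515 CPM, and at 24 h 724, 781, 387 and 760.5 CPM. It lay below all controls in every library from 12 to 24 h and fell by 1.36 on the log2 scale at 20 h (± 0.22, edgeR adjusted p = 8.34e-06). Falls at 12 h (-0.69 ± 0.21), 16 h (-0.96 ± 0.21) and 24 h (-1.24 ± 0.22) passed as well, that at 12 h not with the sets as a term (-0.50, adjusted p = 0.121). The 4 h fall (-0.70 ± 0.21, edgeR adjusted p = 0.02) was lost without 4 h replicate 2 (-0.59, adjusted p = 0.115) and with the sets as a term (-0.53, adjusted p = 0.284). At 8 h it missed the threshold (-0.48, edgeR adjusted p = 0.0505), though DESeq2 called it (adjusted p = 0.0332). Its 48 h values, 669, 1476, 670.5 and 1845 CPM, parted in the way described for SLC25A4.

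SLC25A5 (chromosome X, 97919295 to 97922245), the ADP/ATP carrier known for its expression in growing and dividing cells, had a lowest value of 14.4, a median of 19.2 and a highest of 40.3 CPM over the 9 controls. At 8 h it was 65.3, 62.7, 49.7 and 37.5 CPM, a rise of 1.33 ± 0.29 on the log2 scale (edgeR adjusted p = 0.000277). Control 2, at 40.3 CPM, was alone above 24.4 CPM among the controls, and the libraries at 8, 12, 16 and 24 h overlapped with it and no other control. Rises were called at 6 of the 7 times, with later log2 fold changes, from 12 h on, of 0.87, 0.97, 1.13, 0.97 and 0.86, but not at 4 h (0.67, adjusted p = 0.11). With the sets as a term the 16 h rise was no longer called (0.41, adjusted p = 0.435). With the replicate number as a term, the calls from 12 h on were lost, and so was the joint call. At 12 h the call was lost without replicate 1 (0.74, adjusted p = 0.103) or 4 (0.79, 0.0679) and under column totals (0.85, adjusted p = 0.0699). The 48 h call was lost without replicate 1 (0.45, adjusted p = 0.436), replicate 3 (0.83, 0.106) or any of controls 3, 5, 6 and 8 (0.0503 to 0.0551). Reads of SLC25A5 are uncertain, since the ADP/ATP carrier genes are close relatives, and the sources used here do not say how reads that match several genes were counted.

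Within each library the ratio of SLC25A5 to SLC25A4 counts does not depend on scaling. The controls held 3.79 to 7.71 SLC25A5 counts per 1000 SLC25A4 counts. The libraries held 15.6, 52.0, 73.9 and 126 per 1000 at 20 h and 54.1, 33.5, 134 and 50.6 at 24 h. From 8 to 24 h every library was above every control. Over these 5 times in order the mean log2 ratio rose by 2.44, 1.57, 2.48, 3.40 and 3.57 (2-sided exact permutation test, adjusted p = 0.00979 at each, over 21 tests of 3 ratios at 7 times). It was also higher at 4 h (1.12) and 48 h (2.2), where the groups overlapped (exact permutation test, adjusted p = 0.0294 for both). Both of these calls were lost with some single library left out.

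**Figure D2:**
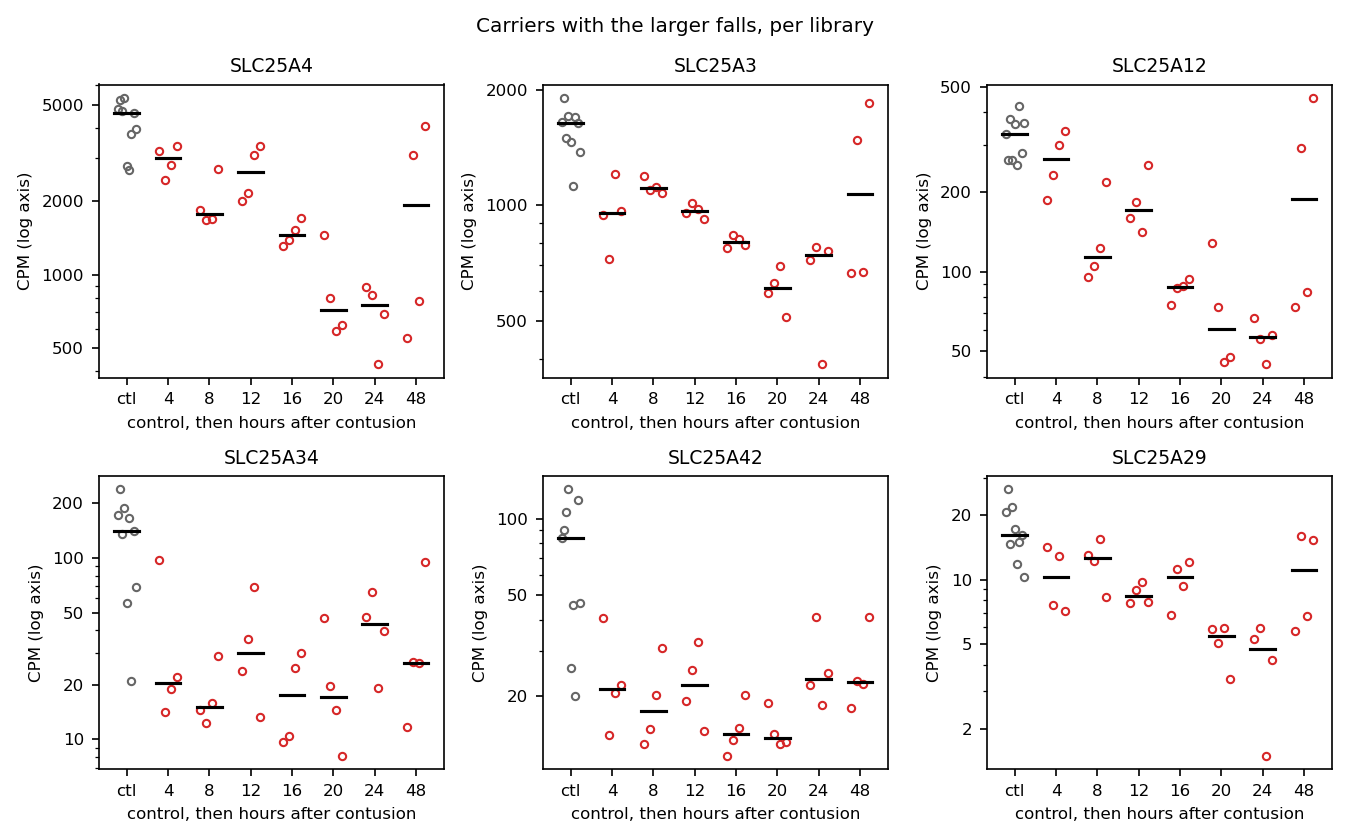
CPM on a log axis of the carriers with the larger falls, 1 point per library for the 9 controls (ctl) and the 4 libraries at each time in h, with a bar at the median. All SLC25A4 and SLC25A12 libraries from 16 to 24 h sit below the controls, and at 48 h both genes have libraries below the controls beside others within or above their range.

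The calcium-regulated ATP-Mg/phosphate carriers, which load or unload the matrix adenine nucleotide pool, differed among themselves. SLC25A24 (chromosome 4, 111580186 to 111632390) had a lowest value of 19.2, a median of 26.1 and a highest of 40.5 CPM over the 9 controls. It was 48.3, 45.4, 50.3 and 54.7 CPM at 20 h, 46.2, 45.8, 69.3 and 47.9 CPM at 24 h and 86.8, 37.7, 84.1 and 26.7 CPM at 48 h. At 20 and 24 h all libraries lay above the controls, and replicates 1 and 3 at 48 h held the 2 highest values of the 37 libraries. Its rises were 0.87 ± 0.20 at 20 h (edgeR adjusted p = 0.000546), 0.95 ± 0.20 at 24 h (0.000201) and 1.12 ± 0.20 at 48 h (0.000197). At 8 h alone it was not called (-0.23, adjusted p = 0.37). Of the rises at 4 h (0.61), 12 h (0.67) and 16 h (0.61), none held with the sets as a term (adjusted p = 0.125 to 0.381), and those at 4 and 12 h were lost under column totals (adjusted p = 0.196 and 0.0546). The 4 h rise was also lost without controls 2, 3 or 9 or replicates 1, 2 or 4 (adjusted p = 0.0502 to 0.110).

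SLC25A25 (chromosome 1, 268531752 to 268575195) spread widely in the controls, with a lowest value of 104, a median of 158 and a highest of 525 CPM over the 9 controls. It was 31.0, 53.6, 64.6 and 69.0 CPM at 8 h, below every control, and 73.7, 58.6, 17.3 and 20.0 CPM at 24 h, again below every control. The fall was -2.06 ± 0.50 at 8 h (edgeR adjusted p = 0.000876) and -2.42 ± 0.51 at 24 h (0.000201). Between them, at 12 and 16 h, it overlapped with the controls and was not called (-0.80 and -0.73). The 20 h fall (-1.57 ± 0.48, edgeR adjusted p = 0.00715) was lost with the sets as a term (-0.97, adjusted p = 0.141). SLC25A23, the third of these carriers, fell at 8, 16, 20 and 24 h, by -0.75, -0.84, -0.62 and -0.94 on the log2 scale, that at 16 h not with the sets as a term (adjusted p = 0.0608).

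SLC25A12 (chromosome 15, 77895935 to 78021930), which encodes aralar, the aspartate/glutamate carrier of muscle and brain, had a lowest value of 254, a median of 331 and a highest of 423 CPM over the 9 controls. It was 95.6, 105, 123 and 218 CPM at 8 h, 74.6, 87.0, 88.1 and 93.7 CPM at 16 h, 128, 73.3, 45.5 and 47.7 CPM at 20 h and 67.0, 55.5, 44.7 and 57.9 CPM at 24 h. Every library from 8 to 24 h lay below all controls, 12 h included, where the test missed the threshold (-0.82, edgeR adjusted p = 0.0585; DESeq2 adjusted p = 0.0331). At 24 h the mean was 56.3 ± 9.18 CPM (SD, n = 4) against 324 ± 61.2 CPM (SD, n = 9), a log2 fold change of -2.53 ± 0.37 (edgeR adjusted p = 1.85e-06). The falls were -1.26 ± 0.34 at 8 h, -1.92 ± 0.35 at 16 h and -2.14 ± 0.36 at 20 h. At 48 h the libraries stood at 73.7, 293, 83.5 and 454 CPM, and no change was called (-0.52, adjusted p = 0.269).

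Its paralog SLC25A13 (chromosome 9, 75781421 to 75980606) encodes citrin, the aspartate/glutamate carrier best known from liver, and followed another course. The controls had a lowest value of 8.12, a median of 19.4 and a highest of 37.0 CPM. It was 9.49, 6.83, 7.42 and 6.47 CPM at 4 h and 5.09, 6.79, 6.21 and 7.08 CPM at 16 h, where all libraries were below the controls, but 13.0, 13.4, 16.9 and 13.7 CPM at 24 h, inside the control range. Falls passed from 4 to 20 h (-1.47, -1.55, -1.44, -1.73 and -1.03), with the smallest adjusted p of 5.19e-05 at 16 h. At 24 and 48 h no change was called (-0.55 and -0.22). The 4 h fall missed the threshold with the sets as a term (adjusted p = 0.0518), and the 20 h fall missed it under column totals (-0.68, adjusted p = 0.08). The ratio of SLC25A13 to SLC25A12 was 21.5 to 140.2 per 1000 counts in the controls and 194, 242, 378 and 237 per 1000 at 24 h, above all controls. Its log2 difference was 2.18 at 24 h (exact permutation test, adjusted p = 0.00979) and 1.43 at 20 h (adjusted p = 0.0636), and the other 5 times gave adjusted p = 0.157 to 0.912.

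SLC25A22 (chromosome 2, 491288 to 498773), a glutamate carrier, was among the few that rose early. It had a lowest value of 2.64, a median of 8.48 and a highest of 13.8 CPM over the 9 controls, and 40.5, 32.4, 29.6 and 14.2 CPM at 8 h. All 8 h libraries and all 16 h libraries (23.7, 28.4, 14.5 and 13.8 CPM) lay above the controls. At 16 h the margin was narrow, with a lowest value of 13.81 CPM against a highest control of 13.78 CPM. The rise was 1.92 ± 0.38 at 8 h (edgeR adjusted p = 8.88e-05) and 1.38 ± 0.38 at 16 h (0.00294), the latter not called with the sets as a term (0.70, adjusted p = 0.23). By 24 and 48 h the difference was -0.02 and -0.11, not called. SLC25A1, the citrate carrier that exports carbon for fatty acid synthesis, fell at 8 h (-0.96), 20 h (-1.01) and 24 h (-1.06), with all libraries below the controls, the 24 h fall not called with column totals (-0.60, adjusted p = 0.0929) or with the sets (adjusted p = 0.0772). All 4 enzymes of the malate-aspartate shuttle tested, GOT1, GOT2, MDH1 and MDH2, fell at 16, 20 and 24 h, with a median of -1.97 at 24 h. GOT1, the cytosolic aspartate aminotransferase, changed most at 24 h, by -3.75 on the log2 scale (edgeR adjusted p = 2.64e-06), from 528 ± 217 CPM in the controls to 39.2 ± 11.0 CPM.

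Among carriers of acylcarnitine and amino acids, SLC25A20, which exchanges acylcarnitines for carnitine in fatty acid oxidation, fell at 5 times. Its controls had a lowest value of 52.5, a median of 79.6 and a highest of 112 CPM, and at 20 h it was 48.4, 35.5, 30.3 and 30.3 CPM, below them all (-1.14 ± 0.21, edgeR adjusted p = 5.1e-05). The falls at 8, 12, 16 and 48 h were -0.81, -0.54, -0.68 and -0.63. Those at 16 and 48 h were lost under column totals (adjusted p = 0.125 and 0.136), and those at 12 and 16 h with the sets as a term (0.107 and 0.0501). Of the 4 carnitine shuttle enzymes tested, 2 fell and none rose at every time but 24 h, where 3 fell and CPT1A, the carnitine palmitoyltransferase best known from liver, rose by 1.45.

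SLC25A29 (chromosome 7, 121178211 to 121192369), a carrier of basic amino acids, had a lowest value of 10.3, a median of 16.2 and a highest of 26.5 CPM over the 9 controls. It was 5.87, 5.05, 5.94 and 3.42 CPM at 20 h and 5.28, 5.94, 1.5 and 4.21 CPM at 24 h, below every control. The fall was -1.76 ± 0.31 at 20 h (edgeR adjusted p = 3.49e-05) and -2.0 ± 0.32 at 24 h (5.75e-06). A fall at 12 h (-1.0 ± 0.30) lay below all controls too but was lost with the sets as a term (-0.70, adjusted p = 0.117). The 16 h fall (-0.80) was lost under column totals (-0.44, adjusted p = 0.164) and without 16 h replicate 1 (-0.66, adjusted p = 0.0973) or 3 (-0.77, 0.0540). SLC25A38, the glycine carrier needed for haem synthesis, was 22.5, 25.7, 25.1 and 28.6 CPM at 24 h, above controls of 8.20 to 19.1 CPM (0.83 ± 0.18, edgeR adjusted p = 0.000258), and fell at 8 h (-0.51, adjusted p = 0.0262; 0.148 with the sets as a term). Its 20 h rise (0.50) was likewise lost with that term (0.29, adjusted p = 0.286). SLC25A15, an ornithine carrier of the urea cycle, ranged from 2.09 to 8.01 CPM in the controls and differed most at 8 h (0.64, adjusted p = 0.0586).

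The mitoferrins bring iron into the matrix for haem and iron-sulphur clusters, SLC25A37 (mitoferrin 1) chiefly in developing red cells and SLC25A28 (mitoferrin 2) in other tissues. SLC25A28 (chromosome 14, 110795304 to 110805631) had the smallest p of the family in the joint test (edgeR adjusted p = 1.75e-07). It had a lowest value of 26.8, a median of 33.5 and a highest of 45.6 CPM over the 9 controls. It was 64.2, 54.7, 62.1 and 56.9 CPM at 8 h, 95.4, 85.1, 70.3 and 65.7 CPM at 16 h and 57.0, 64.3, 60.1 and 67.7 CPM at 20 h, above every control at each. The mean at 16 h was 79.1 ± 13.7 CPM (SD, n = 4) against 34.8 ± 5.42 CPM (SD, n = 9), a rise of 1.18 ± 0.14 (edgeR adjusted p = 1.14e-07). Rises at 8 h (0.77 ± 0.14), 20 h (0.84 ± 0.14) and 24 h (0.77 ± 0.14) passed too. The 12 h rise (0.38, adjusted p = 0.0453) was lost under column totals (0.38, adjusted p = 0.103) and without any 1 of 9 libraries (controls 1, 3, 4, 7, 8 and 9 and 12 h replicates 1 to 3, adjusted p = 0.0507 to 0.180).

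SLC25A37 (chromosome 14, 7665002 to 7709998) differed from the controls by -0.50 to 0.48 on the log2 scale and was called at no time (adjusted p = 0.0673 to 0.611), although the joint test called it (edgeR adjusted p = 0.00343). The controls ran from 10.9 to 25.5 CPM. The ratio of SLC25A37 to SLC25A28 was 309 to 792 per 1000 counts in the controls and 151, 158, 395 and 279.8 at 24 h. Its log2 difference was -0.69 at 16 h, -1.21 at 24 h and -0.78 at 48 h (exact permutation test, adjusted p = 0.0481, 0.0252 and 0.0294), with overlap at each. Each of these calls was lost with some single library left out. Of 9 iron and haem genes tested, 7 fell at 16 h, 7 at 20 h and 6 at 24 h. The list's member FTL, a ferritin gene with a control mean of 0.384 ± 0.270 CPM, was higher at 4 and 24 h from near the level of 3 counts, and its fold is not given. TFRC, the transferrin receptor, fell at 8, 12, 16, 20 and 24 h, from 460.4 ± 335 CPM in the controls to 27.1 ± 13.4 CPM at 24 h (-4.09, edgeR adjusted p = 7.82e-06). FECH, the ferrochelatase that closes haem synthesis, fell by -0.65 at 24 h (adjusted p = 0.00181). The 2 measured erythrocyte markers summed to 73.5 to 477 CPM in the controls, 300.1 to 657 CPM at 16 h and 80.0 to 293 CPM at 24 h, and their part in these values was not tested.

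**Figure D3:**
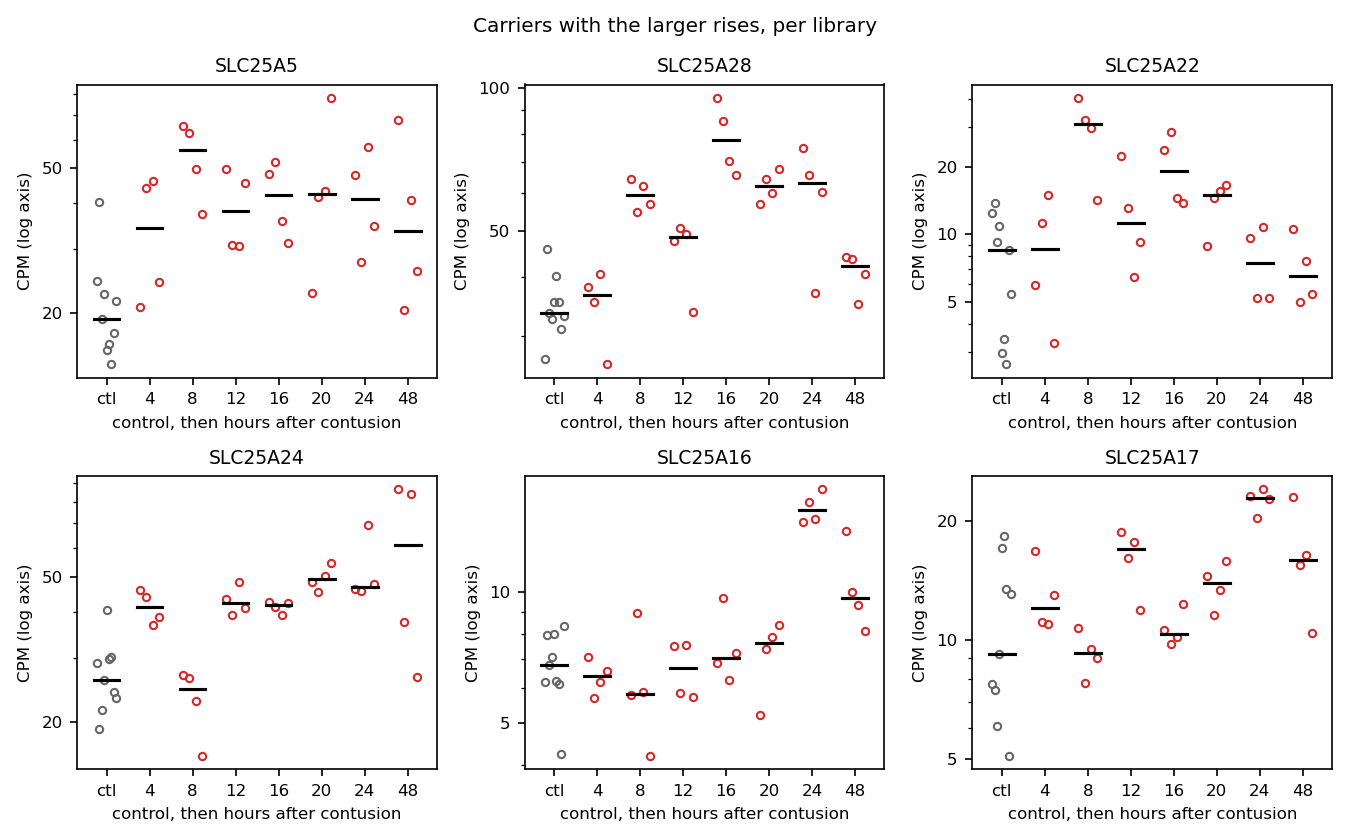
CPM on a log axis of the carriers with the larger rises, 1 point per library for the 9 controls (ctl) and the 4 libraries at each time in h, with a bar at the median. SLC25A28 is above the controls at 8, 16 and 20 h, SLC25A22 at 8 h and narrowly at 16 h, and SLC25A16 and SLC25A17 at 24 h.

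The carriers of coenzyme A parted as well. SLC25A16 (chromosome 14, 71612273 to 71651341) had a lowest value of 4.24, a median of 6.81 and a highest of 8.33 CPM over the 9 controls. It was 14.5, 16.2, 14.7 and 17.2 CPM at 24 h, above all of them, a rise of 1.21 ± 0.17 (edgeR adjusted p = 9.9e-07). From 4 to 20 h its log2 fold change lay between -0.13 and 0.15 and was not called. The 48 h rise (0.61 ± 0.17, adjusted p = 0.0129) was lost without 48 h replicate 1 (0.43, adjusted p = 0.190). SLC25A42 (chromosome 2, 58753363 to 58803356) had a lowest value of 19.9, a median of 83.8 and a highest of 131 CPM over the 9 controls. It fell at all 7 times, most at 20 h, where it was 18.6, 14.1, 12.9 and 13.2 CPM, below all controls (-2.34 ± 0.41, edgeR adjusted p = 3e-05), and at 16 h (-2.31 ± 0.41). Controls 5, 6, 7 and 9 were the 4 lowest, at 19.9 to 46.4 CPM, and injured libraries at the other 6 times overlapped with them. Controls 5, 6 and 7 were also the 3 lowest in the summed slow fibre genes (27787, 20144 and 9590.1 CPM), whose part in this fall was not tested. The 4 h fall (-1.62) missed the threshold with the sets as a term (adjusted p = 0.0520). That at 48 h (-1.52) missed it with that term (0.126) and without 48 h replicate 1 (-1.36, adjusted p = 0.0636).

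SLC25A17 (chromosome 5, 7622638 to 7669980), which encodes a cofactor carrier of the peroxisomal membrane, was 23.2, 20.4, 24.1 and 22.8 CPM at 24 h, above controls of 5.11 to 18.4 CPM (1.06 ± 0.23, edgeR adjusted p = 0.000264). SLC25A26 (chromosome 13, 47743476 to 47909910), which imports S-adenosylmethionine for methylation in the matrix, had a lowest value of 40.4, a median of 49.4 and a highest of 60.3 CPM over the 9 controls. It was 23.0, 23.4, 22.7 and 30.2 CPM at 8 h and 19.8, 24.9, 22.7 and 27.7 CPM at 16 h, below all controls. Its falls were -0.97 ± 0.20 at 8 h (edgeR adjusted p = 0.00015), -1.03 ± 0.20 at 16 h (8.32e-05), -0.72 ± 0.20 at 20 h (0.00275) and -0.58 ± 0.19 at 24 h (0.0122). The 24 h fall was not called under column totals (-0.10, adjusted p = 0.585).

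SLC25A36, a carrier of pyrimidine nucleotides, fell at the 5 times from 8 to 24 h, by -0.86 to -1.42 on the log2 scale, that at 8 h not with the sets as a term (adjusted p = 0.0769). Its controls ran from 45.3 to 158 CPM and overlapped with the injured libraries at each time. SLC25A33, the other pyrimidine nucleotide carrier, was called at none, with controls of 1.65 to 11.0 CPM. The glutathione carriers went opposite ways. SLC25A39 (chromosome 12, 18913261 to 18919761) rose at 8 h (0.37), 16 h (0.56 ± 0.14, edgeR adjusted p = 0.00159) and 20 h (0.38). Only at 16 h, with 48.2, 44.3, 38.0 and 39.2 CPM, did all libraries exceed the controls (22.5 to 33.3 CPM), and that call was lost with the sets as a term (0.34, adjusted p = 0.179). Its 8 and 20 h calls were lost without any 1 of 5 and of 3 libraries (controls 3, 8 and 9 and 8 h replicates 1 and 2, adjusted p = 0.0543 to 0.217; 20 h replicates 1, 3 and 4, 0.0541 to 0.115), and the 8 h call under column totals (0.183) and with the sets as a term (0.19, adjusted p = 0.387). SLC25A40 fell at 8, 16, 20 and 24 h (-1.09, -0.75, -0.97 and -0.64). At 16 and 24 h it did not pass under column totals (adjusted p = 0.139 and 0.553), and at 16 h not with the sets as a term (0.351).

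SLC25A34 (chromosome 6, 74909637 to 74914430), whose substrate is unsettled, fell at all 7 times. It had a lowest value of 20.9, a median of 140.2 and a highest of 239 CPM over the 9 controls, and 14.5, 12.3, 15.8 and 28.7 CPM at 8 h. The falls were largest at 8 h (-2.89 ± 0.66, edgeR adjusted p = 0.000483) and 16 h (-2.82 ± 0.65, 0.000626), yet control 7, at 20.9 CPM, overlapped with injured libraries at every time. The calls at 4, 12, 24 and 48 h (adjusted p = 0.0394, 0.0196, 0.0233 and 0.0414) were each lost without single libraries (7, 2, 2 and 9 of them, adjusted p up to 0.159, 0.0730, 0.0858 and 0.215). Those at 4, 24 and 48 h were also lost with the sets as a term (adjusted p = 0.182, 0.123 and 0.147), and that at 24 h under column totals (-1.20, adjusted p = 0.0632). The uncoupling-protein-like SLC25A27 fell at 8, 20, 24 and 48 h (-1.97, -1.17, -1.5 and -1.33), the calls at 20 and 48 h not under column totals (adjusted p = 0.0859 and 0.0595) and that at 48 h not with the sets as a term (0.143). SLC25A14, of the same kind, was 3.26, 4.00, 3.57 and 4.03 CPM at 24 h and 4.54, 3.54, 4.17 and 3.57 CPM at 48 h, above controls of 1.02 to 2.83 CPM (0.83 ± 0.27 and 0.92 ± 0.27, edgeR adjusted p = 0.00956 and 0.0156), the latter not called with the sets as a term (0.122). SLC25A45 rose from 12 to 24 h, most at 16 h (1.63 ± 0.34, adjusted p = 0.00018), from 2.57 ± 1.76 CPM to 7.91 ± 1.58 CPM, the calls at 12 and 24 h not with the sets as a term (0.0879 and 0.103). SLC25A43 had the narrowest course, with log2 fold changes of -0.27 to 0.11.

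**Figure D4:**
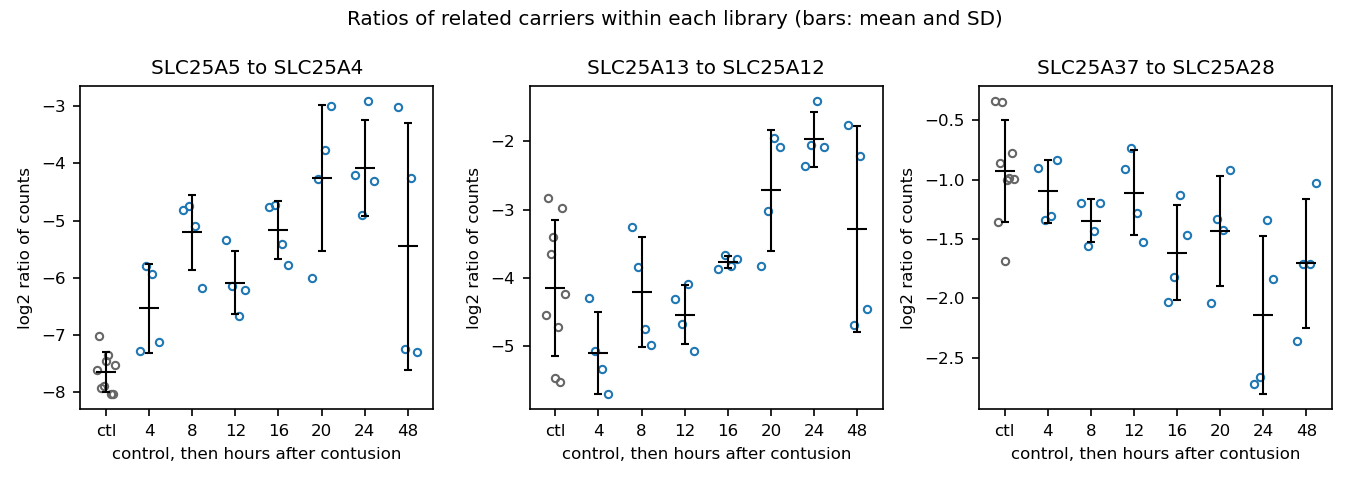
Log2 ratio of counts within each library for SLC25A5 to SLC25A4, SLC25A13 to SLC25A12 and SLC25A37 to SLC25A28, with 1 point per library for the 9 controls (ctl) and the 4 libraries at each time in h, and bars for the mean and SD. From 8 to 24 h every SLC25A5 to SLC25A4 ratio is above all 9 controls, and at 24 h so is that of SLC25A13 to SLC25A12.

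Between 8 and 48 h, without the controls, 12 carriers differed (8 higher and 4 lower at 48 h), beside 37.3% of all genes tested (20.5% higher, 16.9% lower). Scaling by column totals gave 12 higher and 1 lower, and the calls of SLC25A28, SLC25A33 and SLC25A37 were lost (adjusted p = 0.628, 0.17 and 0.185). Higher at 48 h were SLC25A24 (1.35 ± 0.25, edgeR adjusted p = 9.86e-05), SLC25A14 (1.43 ± 0.34), SLC25A13 (1.32 ± 0.35), SLC25A25 (1.76 ± 0.54), SLC25A40 (0.96), SLC25A17 (0.82), SLC25A16 (0.74) and SLC25A38 (0.68). SLC25A22 (-2.02 ± 0.48, edgeR adjusted p = 0.00133), SLC25A33 (-1.21), SLC25A37 (-0.85) and SLC25A28 (-0.54) were lower. SLC25A4 stood at 1985 ± 495 CPM at 8 h and 2124 ± 1738 CPM at 48 h (log2 difference 0.10 ± 0.39, adjusted p = 0.872). Only 1 library at 8 h shared a set with the 48 h libraries, and with the sets as a term 5 carriers were called. The calls of SLC25A22 (-0.82, adjusted p = 0.227), SLC25A33 (-0.22, 0.784), SLC25A25 (1.32, 0.149), SLC25A17 (0.38, 0.477), SLC25A40 (0.56, 0.120), SLC25A37 (-0.80, 0.0947) and SLC25A14 (1.18, 0.0529) were lost. Single libraries also decided SLC25A17 (8 h replicate 2 or 48 h replicate 1, adjusted p = 0.0685 and 0.111), SLC25A25 (48 h replicate 2, 0.0597), SLC25A28 (48 h replicate 3, 0.0542) and SLC25A37 (48 h replicate 1, 0.0562).

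Carriers of the family that have other symbols also changed. UCP2, an uncoupling protein found in immune cells among others, rose at 8, 16, 24 and 48 h, from 3.04 ± 1.75 CPM in the controls to 10.8 ± 4.26 CPM at 16 h (1.81, edgeR adjusted p = 0.000624). UCP3, the uncoupling protein of skeletal muscle, rose at 12 h (1.54) and 16 h (2.48). MTCH1, an outer membrane protein of the family, fell at 4 h (-0.39) and 8 h (-0.33). Of the 33 nuclear oxidative phosphorylation genes tested, 4 fell at 4 h and 30 at 8 h, then 15, 33, 32, 33 and 17 at the later times in order, and none rose at any time. Their median was -1.49 at 24 h, where that of the SLC25 carriers was -0.51. MPC2, a subunit of the pyruvate carrier, and the porins VDAC2 and VDAC3 all fell at 16, 20, 24 and 48 h (-1.66, -1.01 and -1.35 at 24 h). Among 6 genes that import carriers into the membrane, TIMM22, the channel of the carrier translocase, fell at 8, 16, 20 and 24 h (-1.24 at 24 h, edgeR adjusted p = 2.5e-05), and at 8 h it was the only 1 called. Of the 7 calcium uniporter genes, MCUB, a subunit that dampens uptake, rose from 8 to 48 h (1.74 at 48 h) and SMDT1 fell at 8, 16, 20 and 24 h. CKMT2, the mitochondrial creatine kinase of muscle, fell at those same 4 times (-1.96 at 24 h).

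**Figure D5:**
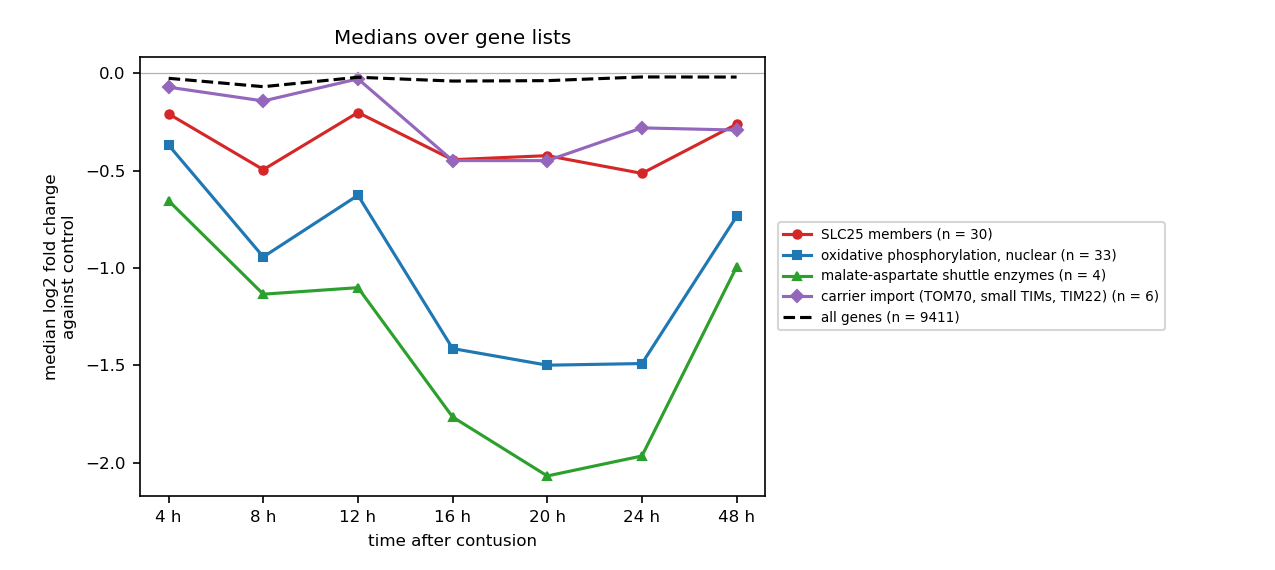
Median log2 fold change against the 9 controls (vertical) of the 30 SLC25 carriers, 33 nuclear oxidative phosphorylation genes, 4 malate-aspartate shuttle enzymes and 6 carrier import genes, with the median of all 9411 genes as a broken line, at 7 times after contusion. On the TMM scale drawn here, the carriers' median lies between -0.51 and -0.20, above the oxidative phosphorylation median at every time.

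Sums of markers of fibre type and of other cells were taken in the same libraries. At the times given here, those of fast fibre and endothelial genes lay within the control range. Summed slow fibre genes were 9590.1 to 127784 CPM in the controls, where controls 5, 6 and 7 were the lowest, 9379.7 to 19176 CPM at 8 h and 4115 to 6685 CPM at 24 h. Fast fibre genes (4 of 8 measured) summed to 9347 to 68564 CPM, 39426 to 50619 CPM and 13459.6 to 23100.4 CPM in those groups. The macrophage sum was 159 to 566 CPM at 8 h, 393 to 599.9 CPM at 16 h and 375 to 653 CPM at 24 h. The neutrophil sum (7 of 11 measured) was 2.83 to 15.2 CPM in the controls and 20.4 to 319.9 CPM at 8 h, endothelial markers (7 of 9) 626 to 1547 CPM and 707 to 929 CPM, and fibroblast markers (7 of 7) 1859 to 7058 CPM and 731 to 2629.9 CPM. The 1 lymphocyte marker measured of 10 was at 1.36 to 2.91 CPM in the controls and 7.67 to 21.5 CPM at 24 h. No marker list summed to 0 in any library, and the part of these cells in the carrier changes was not tested.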

How the data were processed

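Total RNA of skeletal muscle was extracted with Trizol, and NEBNext Ultra libraries were sequenced as 150 bp pairs (HiSeq-2500), per the labels' protocols. Per the submitters' processing notes, the tools included HISAT2 2.2.1 and HTSeq, beside Trimmomatic, FastQC and MultiQC, and the build was Sscrofa11.1. The annotation release, strand setting and treatment of reads that match several genes are not given in the sources used here. Counts of overlapping genes and of close relatives (SLC25A4, SLC25A5) are therefore uncertain. The authors deposited raw counts for 9418 gene symbols in 37 libraries. No symbol's largest count is under 101, so column totals (9.86 to 22.88 M) cover part of each library and limit precision by counting error only as far as those counts go.

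Libraries were grouped by their titles into 9 controls and 4 at each of 7 times. No 2 libraries of a group agreed within sampling noise (lowest chi-square per degree of freedom 16.1). The labels do not say whether the replicate numbers pair the libraries, and the main fits did not pair them. The median correlation of deviations was 0.0295 over 112 same-number pairs (42 above 0.1) and -0.0114 over 476 other pairs (136 above 0.1).

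Counts were scaled by TMM in edgeR 4.0.16 (R 4.3.3, limma 3.58.1), filterByExpr left 9411 genes, and robust quasi-likelihood models with group as the factor were fitted to all libraries. Benjamini-Hochberg adjustment ran over all genes, with a threshold of 0.05. Standard errors are the log2 fold change divided by the square root of F. Ratios of 2 carriers were log2 values with 0.5 counts added (ratios printed per 1000 counts are without it), compared by 2-sided exact permutation tests in SciPy 1.17.1 and adjusted over 21 tests. The smallest p that 4 libraries against 9 reached was 0.0028. The fits were tested on simulated counts. Alternatives were other scalings and filters, DESeq2 1.42.0, a replicate block, fewer groups in the fit, the 5 library sets, and leaving out each library. Removing library set 2 was added after seeing the data.

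The members, gene lists, ratios and library sets were chosen with earlier results of these data known. The carriers examined under every alternative were, at each time, up to 3 rises and 3 falls among called carriers with at least 5 CPM and groups that did not overlap, then the 4 with the smallest joint p, the 5 highest control means, and the members of the ratios, 17 in all. The others are described by their values and calls, except 1 carrier, which enters the counts and medians and is not reported here by itself. Gene positions are from a RefSeq gene table of Sscrofa11.1, which held all 30 symbols. SLC25 genes that the table does not list under this form of symbol were not counted among the 30. Of these, only UCP2, UCP3 and MTCH1 are described.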

Additional observations from a re-analysis of the deposited data

Results flagged for a closer look

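In each group of 4 or 9 libraries, the gap between the most extreme library and its nearest neighbour was set against the range of the group by Dixon's criterion, which marks about 1 group in 20 by chance. Over 160 groups, of levels of the 17 carriers followed and of the 3 log2 ratios, 7 were marked, all of them carrier levels. SLC25A16 in control 8 was 4.24 CPM, where the other controls were 6.15 to 8.33 CPM. SLC25A24 in 24 h replicate 3 was 69.3 CPM where the rest of that group held 45.8 to 47.9 CPM, and SLC25A3 in the same library was 387 CPM against 724 to 781 CPM. SLC25A26 in 4 h replicate 1 was 71.6 CPM against 38.5 to 41.0 CPM, and in 8 h replicate 4 it was 30.2 CPM against 22.7 to 23.4 CPM. SLC25A28 in 12 h replicate 4 was 33.7 CPM, where the others at 12 h were 47.5 to 50.6 CPM. SLC25A37 in 16 h replicate 3 was 32.0 CPM against 23.3 to 24.1 CPM.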

How the results depend on the processing

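With both directions counted together, RLE size factors, column totals, no filter, a stricter filter and DESeq2 moved no count of called carriers by more than 1.5 times. Column totals did change the split by direction. It became 11 higher and 9 lower at 16 h (6 and 12 under TMM) and 10 and 3 at 48 h (4 and 5 under TMM). A pseudocount of 5 changed no ratio's call. The replicate block gave 8 carriers at 4 h (5 without it), ended the SLC25A5 calls at 12, 16, 20, 24 and 48 h and its joint call (adjusted p = 0.312), and turned SLC25A17 at 16 h from -0.02, not called, to 0.49 (adjusted p = 0.0317). Whether libraries of the same number share an animal is not stated, so it is unknown if this term removes a real spread. Fitting only the groups compared left 2 carriers at 48 h. With the 5 sets as a term 0 were called at 4 h, 4 at 48 h and 5 at 48 against 8 h. Among libraries of shared sets 3 were called at 24 h, 0 at 48 h and 0 at 48 against 8 h, with fewer libraries in each fit, and the ratio differences were 2.09 at 12 h and 3.82 at 20 h for SLC25A5 to SLC25A4 and -1.73 at 24 h for SLC25A37 to SLC25A28, without a test. Without set 2, 0 were called at 4 h, where 1 library remained. Shared sets gave no value at 4 h and were not fitted for the joint test. The causes were not tested. Leaving out each library in turn gave 2 to 6 carriers at 4 h, 16 to 20 at 8 h, 5 to 12 at 12 h, 17 to 19 at 16 h, 18 to 22 at 20 h, 21 to 25 at 24 h, 1 to 17 at 48 h (1 without replicate 1, 3 without replicate 3, 17 without replicate 4), 10 to 14 at 48 against 8 h and 27 or 28 jointly. The 4 h count was 2 without replicate 2 and the 12 h count 5 without replicate 1. Of 69 calls of the 17 carriers followed, 54 held without any 1 library and none changed sign. Ratio differences that lost or gained a call ranged over 0.875 to 1.37 (4 h) and 1.39 to 2.82 (48 h) for SLC25A5 to SLC25A4, 1.17 to 1.80 (20 h) for SLC25A13 to SLC25A12, and -0.514 to -0.345 (8 h), -0.846 to -0.546 (16 h), -1.48 to -1.02 (24 h) and -0.999 to -0.556 (48 h) for SLC25A37 to SLC25A28.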
